A study of Arabidopsis thaliana with 29 samples.

Results

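The enzymes of the Calvin cycle and of photorespiration were followed as 39 loci of Arabidopsis thaliana, taken by identifier from a table of sense-strand read counts for 59999 loci. Of these, 24 encode the nuclear Rubisco small subunits, Rubisco activase, the plastid enzymes of the Calvin cycle and the CP12 proteins, and 15 encode the main photorespiratory enzymes and 1 transporter. All 39 were in the table, and all 39 passed the filter on low counts, as did 21820 loci in all. The series holds 29 samples, of which the 9 RNA-seq samples were used, and the 20 ChIP-seq samples were not analysed here. RNA was extracted from 7-day-old seedlings in 3 groups. The fusca group (3 libraries) is a line with a fusca phenotype labelled 2x35S::GFP-HY5/hy5, in which a doubled cauliflower mosaic virus 35S promoter, active in most plant cells, drives GFP-tagged HY5 in a hy5 mutant background. The GFP-HY5 group carries the same construct label without the fusca phenotype. Its 3 columns held identical values in every row and were counted as 1 library. The WT group (3 libraries) is wild type. All groups share the same growth on Murashige and Skoog medium with a sucrose label of 0.01, under 16 h of white light and 8 h of darkness a day. The labels give neither the WT accession, nor the number of independent transgenic lines, nor whether replicates came from separate cultures, so p-values measure only the spread between these samples. How fusca seedlings were picked from the line is not described.

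The Calvin cycle fixes carbon dioxide in the chloroplast stroma. Rubisco joins carbon dioxide to ribulose bisphosphate, phosphoglycerate is reduced to triose phosphate, and a set of aldolase, transketolase and phosphatase reactions regenerates the acceptor. Rubisco also reacts with oxygen, and the phosphoglycolate so formed is recycled through chloroplast, peroxisome and mitochondrion in photorespiration. HY5 is a transcription factor of light signalling, and fusca seedlings are known for purple colour and arrested growth.

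Library totals over loci were between 11860094 and 12545563 counts. Levels are given as CPM, counts scaled to library size with TMM factors, and they are compared between libraries but not between loci, since they are not divided by gene length. An error after a log2 fold change is its SE, and after a share or ratio the SD over 3 libraries. HY5 itself stood at 129, 187 and 130 CPM in the fusca libraries, at 77.4 CPM in the GFP-HY5 library and at 14.1, 16.2 and 12.1 CPM in the WT libraries, and reads of the transgene and of the mutated gene cannot be told apart in these counts. With edgeR's quasi-likelihood test, 35.1% of the tested loci passed a Benjamini-Hochberg adjusted p of 0.05 in fusca against WT, 18.4% lower and 16.7% higher. Of these calls 47.6% were higher in fusca, against 79.8% with library sizes in place of TMM factors and 61.1% with upper-quartile factors, which moved the median of all loci by 0.45 and 0.15 in log2. With TMM factors the median log2 fold change of all tested loci was 0.05. In whole seedlings, fewer cells of a type and less RNA per cell cannot be told apart. The 10 root markers summed to 125 to 169 CPM in fusca, 100 CPM in GFP-HY5 and 108 to 134 CPM in WT, with 5 of 10 higher and 3 lower past the test. The 4 epidermis markers summed to 810 to 929 CPM in fusca, 741 CPM in GFP-HY5 and 587 to 716 CPM in WT, with 1 of 4 higher. The 5 vasculature markers summed to 199 to 320 CPM in fusca, 291 CPM in GFP-HY5 and 290 to 315 CPM in WT, with 1 higher and 2 lower. The 10 seed storage markers summed to 216 CPM in fusca replicate 2, against 2.29 and 2.08 CPM in fusca replicates 1 and 3, 0.883 CPM in GFP-HY5 and 1.72 to 4.96 CPM in WT. Fusca replicate 2 was also the highest of the 3 fusca libraries at 31 of the 39 members. The part of these markers in the results below was not tested, and the counts of members that fell are the same without that library.

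Transcripts of both pathways were far scarcer in fusca than in WT. The 39 loci together held 0.569%, 0.821% and 0.607% of all counts in the fusca libraries, 8.12% in GFP-HY5 (95% interval 8.10% to 8.14% by the Wilson method, counting error only) and 9.00%, 8.97% and 10.2% in the WT libraries. The fusca libraries lay far below all others, and the GFP-HY5 library lay just below the WT libraries. In fusca against WT, 36 of the 39 members fell, where 18.4% of all tested loci did, and all 36 fell at least 4-fold, where 4.59% of all tested loci did. At 28 members the decrease was at least 8-fold and at 19 at least 16-fold, where 2.1% and 1.1% of all tested loci fell that far. Their folds ran from 4.49 to 299 lower, and their adjusted p-values in edgeR's quasi-likelihood test ran from 3.5e-07 to 3.5e-05. The 36 members had every fusca library below every WT library, as had 24.4% of all tested loci. The other members were CP12-3, which rose, and FBA3 and TKL2, which did not pass the test.

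**Figure D1:**
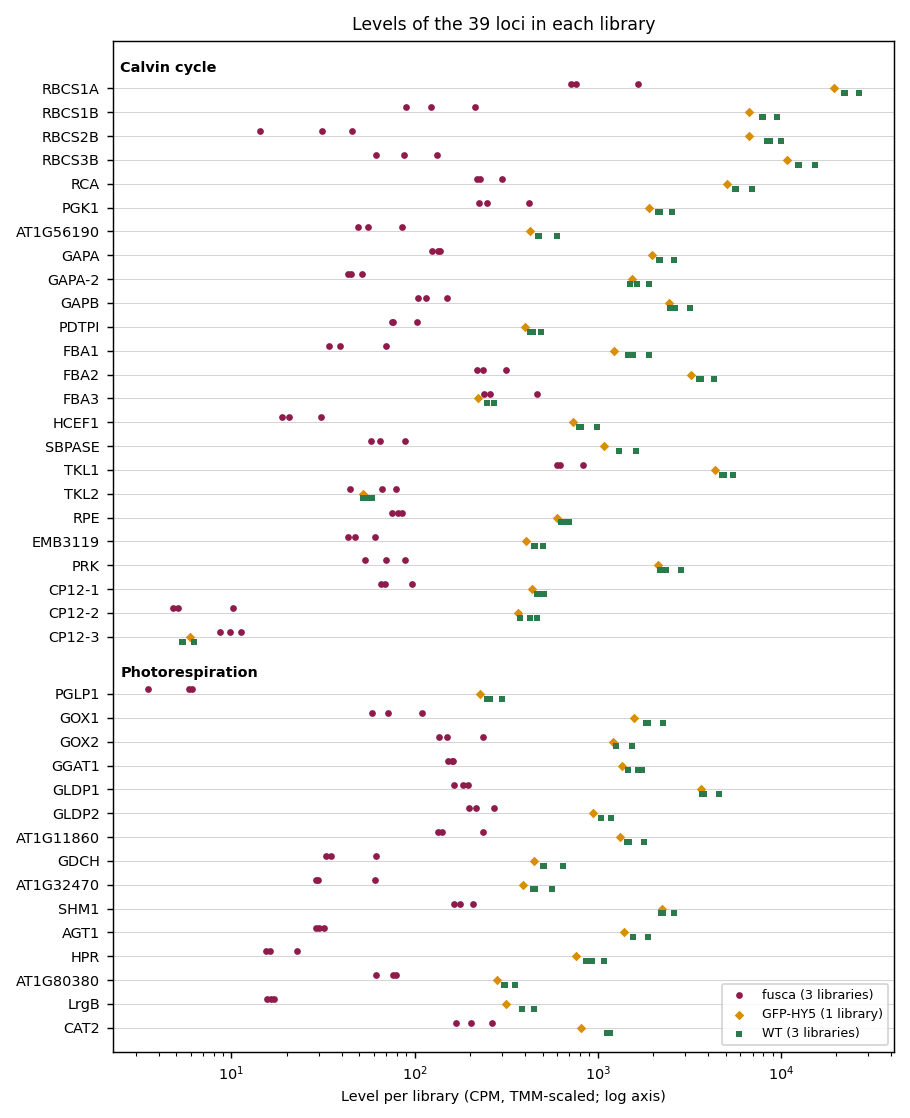
Level of each of the 39 loci in every library on a log10 CPM axis, with points for the 3 fusca libraries, the GFP-HY5 library and the 3 WT libraries, grouped by pathway. The fusca points lie far to the left of the GFP-HY5 and WT points except at FBA3, TKL2 and CP12-3.

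Within the Calvin cycle, 21 of 24 loci fell in fusca, 1 rose and 2 did not pass the test. Of all tested loci, 18.4% fell and 16.7% rose. The median log2 fold change of the Calvin cycle was -4.23, with quartiles of -5.14 and -2.92. In the carboxylation step, all 4 Rubisco small subunit loci fell, which are encoded in the nucleus and whose products assemble with the plastid-encoded large subunit. All 4 RBCS loci together held 0.110%, 0.226% and 0.119% of all counts in fusca, 3.98% in GFP-HY5 and 4.54%, 4.53% and 5.15% in WT, a summed CPM 41.8-fold lower in fusca than in WT. RBCS2B stood at 14.4, 45.3 and 31.1 CPM in fusca, at 6721 CPM in GFP-HY5 and at 8715, 8373 and 10023 CPM in WT. Its log2 fold change in fusca against WT of -8.22 ± 0.49 (SE, edgeR adjusted p = 2.6e-06) was the lowest of all 39 members. RBCS3B followed with 61.7, 133 and 87.0 CPM in fusca, 10834 CPM in GFP-HY5 and 12449, 12608 and 15291 CPM in WT, a log2 fold change of -7.16 ± 0.40. For RBCS1B the levels were 89.2, 214 and 123 CPM in fusca, 6677 CPM in GFP-HY5 and 7829, 8004 and 9516 CPM in WT, a log2 fold change of -5.89 ± 0.39. The 3 B-type genes are near-identical in sequence, so the division of reads among them is uncertain, and summed they gave a log2 fold change of -6.86.

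RBCS1A, the remaining small subunit gene, fell least of the 4 in fold. It stood at 757, 1653 and 710 CPM in fusca, at 19532 CPM in GFP-HY5 and at 22139, 22287 and 26598 CPM in WT, and fell 22.8-fold (log2 fold change -4.51 ± 0.41, edgeR adjusted p = 2.9e-05). The fusca libraries did not overlap the WT libraries, and fusca replicate 2 was above the other fusca libraries. Rubisco activase, encoded by RCA, removes inhibitory sugar phosphates from the Rubisco active site. Its level was 227, 301 and 218 CPM in fusca, 5050 CPM in GFP-HY5 and 5641, 5674 and 6953 CPM in WT, 24.5-fold lower in fusca than in WT.

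In the reduction phase, the subunits of the plastid NADP-dependent glyceraldehyde phosphate dehydrogenase fell more than phosphoglycerate kinase did in fold. GAPA-2 had 43.2, 51.8 and 44.7 CPM in fusca, 1535 CPM in GFP-HY5 and 1497, 1639 and 1906 CPM in WT, a log2 fold change in fusca against WT of -5.17 ± 0.21. GAPB, the subunit with a regulatory tail, had 104, 149 and 115 CPM in fusca, 2436 CPM in GFP-HY5 and 2482, 2622 and 3165 CPM in WT, a log2 fold change of -4.49 ± 0.24. GAPA had 138, 125 and 134 CPM in fusca, 1987 CPM in GFP-HY5 and 2186, 2166 and 2620 CPM in WT, a log2 fold change of -4.14 ± 0.20. At all 3 loci the fusca libraries were close together and far under the WT libraries. PGK1, a plastid phosphoglycerate kinase, had 225, 422 and 247 CPM in fusca, 1908 CPM in GFP-HY5 and 2192, 2123 and 2532 CPM in WT, 7.66-fold lower in fusca (log2 fold change -2.94 ± 0.28, edgeR adjusted p = 3.5e-05). AT1G56190, the second plastid phosphoglycerate kinase, stood at 55.4, 85.5 and 49.0 CPM in fusca, 426 CPM in GFP-HY5 and 479, 469 and 599 CPM in WT, a log2 fold change of -3.03 ± 0.24. Triose phosphate isomerase of the plastid (PDTPI) changed least of the Calvin cycle loci that fell, 5.32-fold, with 75.2, 103 and 76.5 CPM in fusca, 402 CPM in GFP-HY5 and 426, 440 and 490 CPM in WT.

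In the regeneration phase, the loci fell by amounts between those of TKL1 and HCEF1, apart from FBA3 and TKL2. HCEF1, the plastid fructose bisphosphatase, had 20.7, 30.7 and 18.8 CPM in fusca, 733 CPM in GFP-HY5 and 793, 810 and 992 CPM in WT, 36.9-fold lower in fusca (log2 fold change -5.21 ± 0.25, edgeR adjusted p = 9.7e-07). SBPASE, the sedoheptulose bisphosphatase of the cycle, had 57.7, 88.5 and 64.7 CPM in fusca, 1076 CPM in GFP-HY5 and 1304, 1306 and 1616 CPM in WT, 20.0-fold lower in fusca. PRK, the phosphoribulokinase that makes the carbon dioxide acceptor, had 53.4, 88.2 and 70.0 CPM in fusca, 2132 CPM in GFP-HY5 and 2351, 2194 and 2833 CPM in WT, 34.9-fold lower in fusca. None of these 3 loci had a fusca library near a WT library, and the GFP-HY5 library was the lowest of the non-fusca libraries at each. The transketolase TKL1 moves 2-carbon units between sugar phosphates. It had 623, 833 and 597 CPM in fusca, 4338 CPM in GFP-HY5 and 4860, 4780 and 5492 CPM in WT, 7.37-fold lower in fusca. RPE, the ribulose phosphate epimerase, had 85.3, 81.6 and 75.2 CPM in fusca, 596 CPM in GFP-HY5 and 650, 626 and 697 CPM in WT, a log2 fold change of -3.03 ± 0.16. EMB3119, a plastid ribose phosphate isomerase, had 47.4, 60.7 and 43.1 CPM in fusca, 404 CPM in GFP-HY5 and 448, 453 and 500 CPM in WT, a log2 fold change of -3.21 ± 0.18.

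The plastid aldolases did not move together. FBA1 had 39.1, 69.9 and 34.2 CPM in fusca, 1224 CPM in GFP-HY5 and 1463, 1557 and 1900 CPM in WT, and fell 34.3-fold (log2 fold change -5.10 ± 0.32, edgeR adjusted p = 3.5e-06). FBA2 had 219, 316 and 236 CPM in fusca, 3233 CPM in GFP-HY5 and 3573, 3676 and 4318 CPM in WT, a log2 fold change of -3.91 ± 0.24. FBA3 had 256, 468 and 239 CPM in fusca, 222 CPM in GFP-HY5 and 249, 273 and 270 CPM in WT. Here the fusca and WT libraries overlapped, and the log2 fold change of 0.28 ± 0.25 did not pass the edgeR test (adjusted p = 0.43). Its sign rested on fusca replicate 2: without that library the log2 fold change was -0.09 (edgeR adjusted p = 0.47), and with library sizes in place of TMM factors it was 0.71 and passed the test (edgeR adjusted p = 0.020). FBA3 overlaps AT2G01130 by position in the gene table. Strands were not compared, so whether this affects its sense-strand counts is not known.

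TKL2, the other transketolase, had 79.0, 44.5 and 66.3 CPM in fusca, 52.1 CPM in GFP-HY5 and 52.0, 54.7 and 58.7 CPM in WT. Fusca replicates 1 and 3 were above and fusca replicate 2 below the WT libraries, and the log2 fold change of 0.20 ± 0.20 did not pass (edgeR adjusted p = 0.49). Without fusca replicate 2 it was 0.40 and passed (edgeR adjusted p = 0.0079), and with library sizes in place of TMM factors it was 0.66 and passed (edgeR adjusted p = 0.030). TKL1 fell under each of these settings.

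The CP12 proteins, small redox-regulated linkers that bind glyceraldehyde phosphate dehydrogenase and phosphoribulokinase in the dark, went in different directions. CP12-2 had 5.13, 10.2 and 4.82 CPM in fusca, 367 CPM in GFP-HY5 and 424, 375 and 467 CPM in WT, and fell 62.8-fold (log2 fold change -5.97 ± 0.32, edgeR adjusted p = 1.4e-06). CP12-1 had 65.5, 96.9 and 69.1 CPM in fusca, 435 CPM in GFP-HY5 and 473, 465 and 507 CPM in WT, a log2 fold change of -2.64 ± 0.19. CP12-3 had 9.85, 11.3 and 8.64 CPM in fusca, 5.91 CPM in GFP-HY5 and 5.34, 6.23 and 5.44 CPM in WT. All 3 fusca libraries were above all WT libraries, as at 25.4% of all tested loci, and CP12-3 rose by 0.81 ± 0.19 in log2 (edgeR adjusted p = 0.0082). It stayed past the threshold under every alternative run, with log2 fold changes between 0.70 and 1.25.

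**Figure D2:**
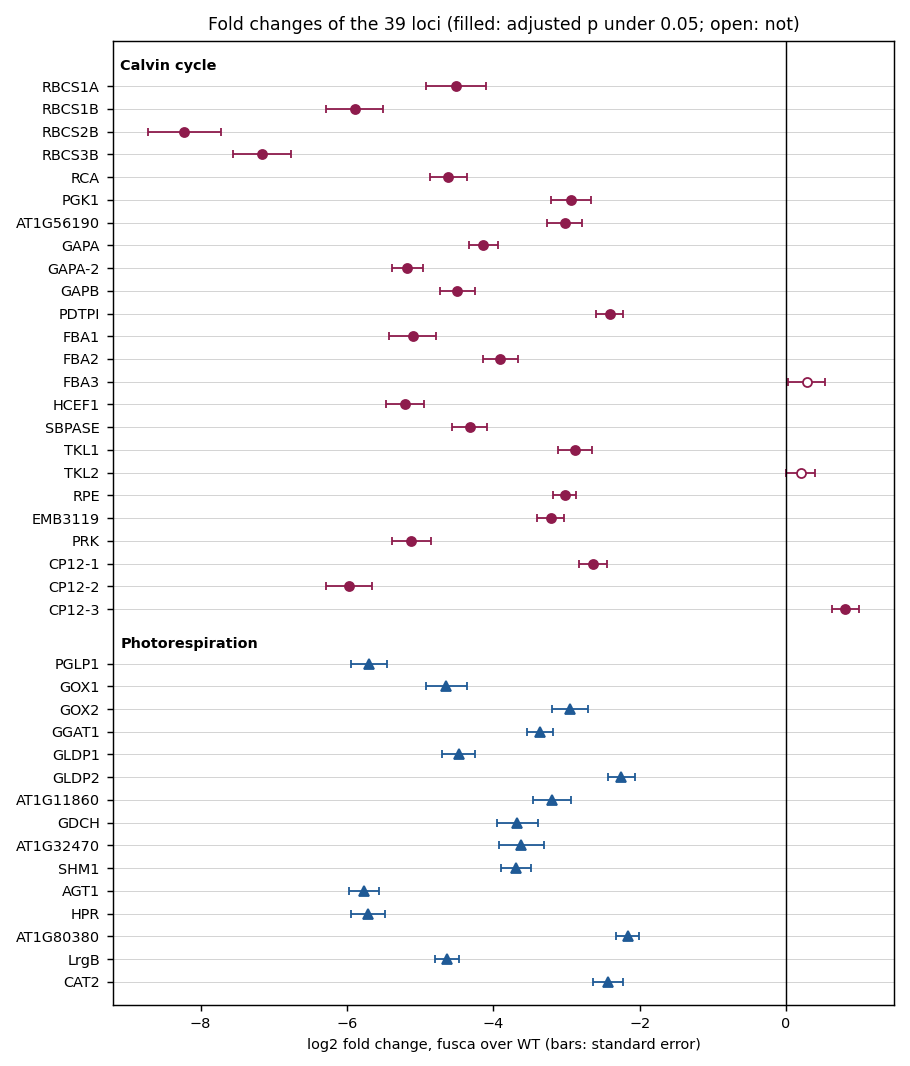
Log2 fold change of each member in fusca against WT with bars of 1 SE from edgeR's fit, grouped by pathway. Filled points have an edgeR adjusted p under 0.05 and open points do not. Calvin cycle loci run from -8.22 to 0.81 and photorespiration loci from -5.77 to -2.17.

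Photorespiration fell at all 15 members, where 18.4% of all tested loci fell. Each fell at least 4-fold and 11 of them at least 8-fold, where 4.59% and 2.1% of all tested loci did. The median log2 fold change was -3.67, with quartiles of -4.64 and -3.07. In the chloroplast, PGLP1, the phosphoglycolate phosphatase that starts the pathway, had 3.51, 5.89 and 6.09 CPM in fusca, 226 CPM in GFP-HY5 and 259, 248 and 299 CPM in WT, 52.0-fold lower in fusca (log2 fold change -5.70 ± 0.24, edgeR adjusted p = 6.1e-07). AT5G36790, counted outside the 39 as its near-identical copy, had almost the same levels, with 4.52, 5.16 and 4.42 CPM in fusca, 219 CPM in GFP-HY5 and 258, 244 and 300 CPM in WT. The division of reads between the pair is uncertain, and their sum gave a log2 fold change of -5.76. LrgB, the plastid glycolate and glycerate transporter PLGG1, had 17.0, 16.3 and 15.6 CPM in fusca, 315 CPM in GFP-HY5 and 387, 385 and 447 CPM in WT, 24.9-fold lower in fusca. AT1G80380, the glycerate kinase that closes the pathway, had 76.1, 79.6 and 61.2 CPM in fusca, 282 CPM in GFP-HY5 and 311, 309 and 354 CPM in WT. Its 4.49-fold decrease in fusca was the smallest of the 36 members that fell.

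The peroxisomal enzymes fell over a wide range. The glycolate oxidases turn glycolate to glyoxylate and release hydrogen peroxide. GOX1 had 58.5, 109 and 71.6 CPM in fusca, 1572 CPM in GFP-HY5 and 1874, 1825 and 2270.5 CPM in WT, 24.9-fold lower in fusca (log2 fold change -4.64 ± 0.29, edgeR adjusted p = 3.0e-06). GOX2 had 136, 235 and 151 CPM in fusca, 1211 CPM in GFP-HY5 and 1257, 1253 and 1532 CPM in WT, 7.74-fold lower in fusca. These genes are near-identical too, and their sum gave a log2 fold change of -3.72. CAT2, the leaf catalase that breaks down the peroxide, had 204, 264 and 167 CPM in fusca, 807 CPM in GFP-HY5 and 1137, 1169 and 1116 CPM in WT, 5.38-fold lower in fusca. Its GFP-HY5 level stood apart from the WT libraries more than that of any other member, by -0.50 in log2 CPM.

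Among the aminotransferases and the reductase of the peroxisome, AGT1 and HPR had larger decreases in fold than GGAT1. AGT1, the serine glyoxylate aminotransferase, had 29.96, 29.1 and 32.2 CPM in fusca, 1388 CPM in GFP-HY5 and 1551, 1558 and 1868 CPM in WT, 54.5-fold lower in fusca (log2 fold change -5.77 ± 0.21, edgeR adjusted p = 3.5e-07). HPR, the hydroxypyruvate reductase, had 15.5, 22.8 and 16.3 CPM in fusca, 765 CPM in GFP-HY5 and 924, 861 and 1082 CPM in WT, 52.4-fold lower in fusca. GGAT1, the glutamate glyoxylate aminotransferase, had 153, 160 and 162 CPM in fusca, 1348 CPM in GFP-HY5 and 1666, 1463 and 1742 CPM in WT, a log2 fold change of -3.36 ± 0.18. At AGT1 and GGAT1 the fusca libraries were nearly equal, and at none of the 3 loci did they overlap the WT libraries.

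In the mitochondrion, the glycine decarboxylase complex and serine hydroxymethyltransferase turn glycine into serine with release of carbon dioxide and ammonium. GLDP1, a P protein that carries out the decarboxylation, had 164, 185 and 196 CPM in fusca, 3664 CPM in GFP-HY5 and 3694, 3820 and 4589 CPM in WT, 22.2-fold lower in fusca (log2 fold change -4.47 ± 0.22, edgeR adjusted p = 1.1e-06). GLDP2, the other P protein, had 197, 273 and 215 CPM in fusca, 936 CPM in GFP-HY5 and 1036, 1035 and 1186 CPM in WT, 4.75-fold lower in fusca. AT1G11860, the T protein, had 135, 236 and 141 CPM in fusca, 1316 CPM in GFP-HY5 and 1473, 1446 and 1779 CPM in WT, with a log2 fold change of -3.20 ± 0.26. The fusca libraries lay below the WT libraries at each of these subunits. GDCH, an H protein that carries the aminomethyl group between subunits, had 35.1, 61.7 and 32.8 CPM in fusca, 447 CPM in GFP-HY5 and 499, 509 and 643 CPM in WT, a log2 fold change of -3.67 ± 0.28. AT1G32470, another H protein, had 29.8, 60.9 and 28.8 CPM in fusca, 391 CPM in GFP-HY5 and 457, 444 and 564 CPM in WT, a log2 fold change of -3.62 ± 0.31. SHM1, the mitochondrial serine hydroxymethyltransferase, had 164, 209 and 178 CPM in fusca, 2250 CPM in GFP-HY5 and 2264, 2218 and 2608 CPM in WT, a log2 fold change of -3.69 ± 0.20. Its GFP-HY5 level was inside the WT range, the only photorespiratory locus of the 15 where that was so.

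Set beside each other, the pathways differed in their summed counts mainly through the Rubisco small subunits. The Calvin cycle loci held 0.400%, 0.606% and 0.422% of all counts in fusca, 6.58% in GFP-HY5 and 7.34%, 7.33% and 8.32% in WT, and their summed CPM was 21.7-fold lower in fusca than in WT. Photorespiration loci held 0.169%, 0.215% and 0.185% in fusca, 1.54% in GFP-HY5 and 1.67%, 1.64% and 1.85% in WT, and their summed CPM was 12.3-fold lower. The ratio of photorespiration to Calvin cycle counts was 0.423, 0.355 and 0.438 in fusca, 0.234 in GFP-HY5 and 0.227, 0.223 and 0.222 in WT, so that fusca and WT did not overlap. With the 4 RBCS loci left out, the ratio was 0.584, 0.567 and 0.612 in fusca, 0.592 in GFP-HY5 and 0.596, 0.585 and 0.582 in WT. Its mean was then 0.587 ± 0.023 in fusca and 0.588 ± 0.007 in WT (SD, n = 3 each), and the groups overlapped. The 20 remaining Calvin cycle loci had a summed CPM 12.2-fold lower in fusca than in WT. An exact permutation test of 3 libraries against 3 cannot go below p = 0.10, so no p is given for these ratios.

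**Figure D3:**
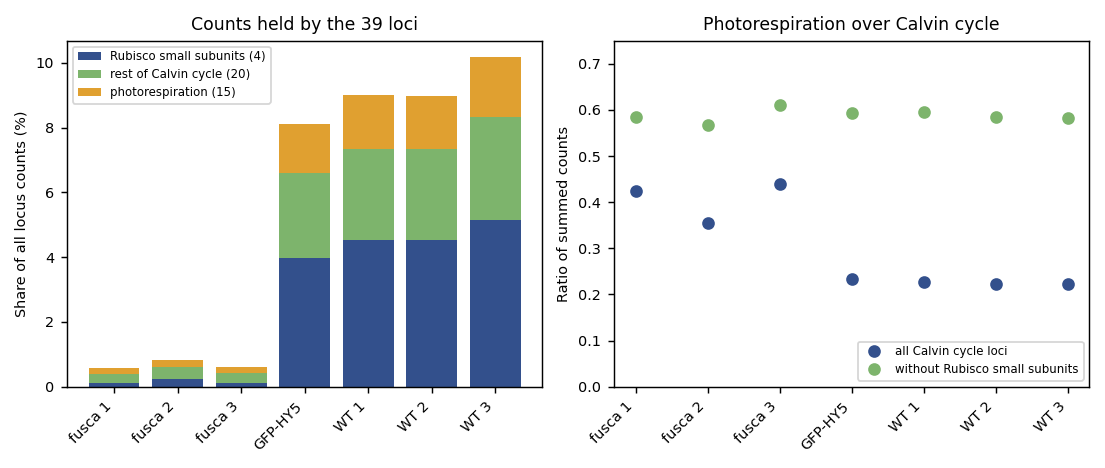
Share of all counts held by the Rubisco small subunits, the other Calvin cycle loci and the photorespiration loci in each library, as stacked bars. Beside it is the ratio of photorespiration to Calvin cycle counts with and without the small subunits. The fusca ratios of 0.355 to 0.438 lie above the WT ratios of 0.222 to 0.227 with the small subunits, and the groups overlap without them.

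By median log2 fold change in fusca against WT, the Calvin cycle was lower than photorespiration by 0.56, but the quartiles of the lists overlap. Taken library by library against the WT mean, the Calvin cycle median was -4.37, -3.91 and -4.27 in fusca and the photorespiration median -3.95, -3.34 and -4.05. The difference between the lists therefore ran from -0.57 to -0.22 over the fusca libraries. Over the WT libraries it ran from -0.02 to 0.02. Those WT values are centred by the calculation, since the WT mean was subtracted, so they are no yardstick for the fusca values. Without fusca replicate 2 the difference of the medians was -0.29, and with near-identical copies summed it was -0.34.

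Within enzyme families, members took other shares of the family's counts in fusca than in WT in most families. Shares of a family's counts do not depend on library scaling, and of 9 families with more than 1 member here, 6 had no share that overlapped between the fusca and WT libraries. By level, 10963 of the 21820 tested loci overlapped, and the others did not, with fusca below at 24.4% and above at 25.4%. No such background was computed for shares, and in a family of 2 members the shares mirror each other. Whether 6 of 9 is more than usual therefore cannot be told. In the RBCS and glycolate oxidase families the shares rest on the uncertain division of reads between near-identical copies. RBCS1A made up 82.1%, 80.8% and 74.6% of RBCS counts in fusca, 44.6% in GFP-HY5 and 43.3%, 43.5% and 43.3% in WT, and RBCS2B made up 2.35% ± 0.86 in fusca and 16.6% ± 0.42 in WT (SD, n = 3 each). FBA3 made up 50.5% ± 4.01 of the plastid aldolase counts in fusca, 4.74% in GFP-HY5 and 4.61% ± 0.40 in WT. TKL2 made up 11.3%, 5.07% and 9.99% of the transketolase counts in fusca, 1.19% in GFP-HY5 and 1.06%, 1.13% and 1.06% in WT. So FBA3 and TKL2 held larger shares of their families' counts in every fusca library than in any WT library. CP12-1 made up 82.3% ± 1.23 of CP12 counts in fusca, 53.9% in GFP-HY5 and 53.1% ± 1.71 in WT. GOX1 made up 31.3% ± 1.10 of the glycolate oxidase counts in fusca, 56.5% in GFP-HY5 and 59.6% ± 0.30 in WT. GLDP1 made up 44.5% ± 3.74 of the P protein counts in fusca, 79.7% in GFP-HY5 and 78.7% ± 0.69 in WT, and GLDP2 held the rest.

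In other families the shares overlapped between fusca and WT while the members fell. PGK1 made up 82.3% ± 1.75 of phosphoglycerate kinase counts in fusca, 81.8% in GFP-HY5 and 81.6% ± 0.64 in WT. GDCH made up 52.5% ± 1.96 of the counts of the 2 H proteins in fusca, 53.4% in GFP-HY5 and 53.0% ± 0.64 in WT. Both pairs overlapped between fusca and WT. The H protein shares leave out AT2G35120, one of the other photorespiratory loci, so they do not describe that locus. It had 60.2, 84.3 and 50.6 CPM in fusca, 53.7 CPM in GFP-HY5 and 49.7, 53.3 and 51.5 CPM in WT. Its log2 fold change of 0.33 ± 0.19 did not pass the test (edgeR adjusted p = 0.21). In the glyceraldehyde phosphate dehydrogenase family, GAPB made up 40.5% ± 4.84 in fusca, 40.9% in GFP-HY5 and 40.7% ± 0.45 in WT, which overlapped, whereas GAPA-2 made up 15.4% ± 0.40 in fusca, 25.8% in GFP-HY5 and 24.9% ± 0.61 in WT, which did not.

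**Figure D4:**
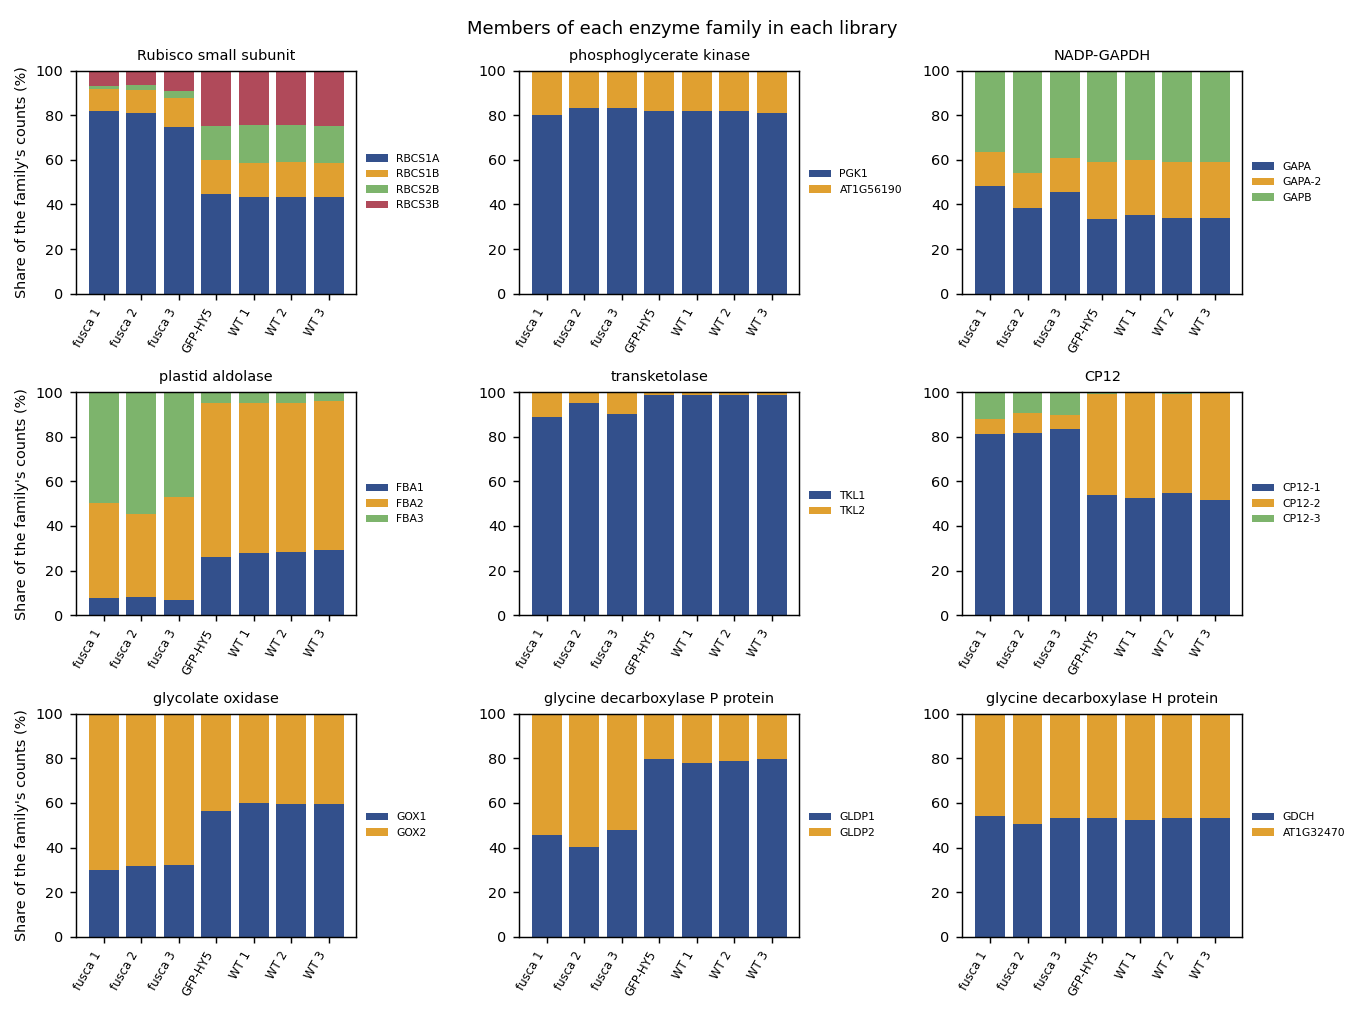
Share of each family's counts held by its members in every library, as stacked bars that sum to 100%, with fusca at the left, GFP-HY5 next and WT at the right. FBA3 takes 50.5% of the aldolase bars on average in fusca and 4.61% in WT, whereas the shares of PGK1 and GDCH overlap between fusca and WT.

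The GFP-HY5 library, with no replicate of its own, was close to WT but mostly under it. Against the WT mean, its log2 CPM differed by a median of -0.23 over the Calvin cycle and -0.25 over photorespiration. It was under the WT mean at 38 of the 39 members, where 48.3% of all tested loci were, with no member at least 2-fold away, as 3.07% of all tested loci were. It lay below the whole WT range at 35 of the 39 members, where 28.8% of all tested loci did, and inside it at GAPA-2, TKL2, CP12-3 and SHM1. After CAT2, the largest differences were -0.42 at RBCS2B, -0.41 at FBA1 and -0.38 at SBPASE. WT replicate 3 was the highest WT library in the medians, at 0.17 for the Calvin cycle and 0.18 for photorespiration, with the others between -0.10 and -0.07. Without it the medians of GFP-HY5 against WT were -0.16 and -0.17. With library sizes in place of TMM factors, GFP-HY5 lay below the WT range at 31 of 39 members, where 20.9% of all tested loci did.

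Against the GFP-HY5 library, the fusca libraries were lower by a median log2 CPM difference of -3.93 over the Calvin cycle and -3.43 over photorespiration. These differences share the fusca libraries with the comparison against WT. At 36 of the 39 members fusca was at least 2-fold lower than GFP-HY5, where 11.7% of all tested loci were, and at none was it at least 2-fold higher, where 7.58% were. The difference was lowest at RBCS2B, at -7.94, and at CAT2 it was -1.95. GFP-HY5 lay above all fusca libraries at 36 members, where 32.2% of all tested loci did, below all of them at FBA3 and CP12-3, where 32.3% of all tested loci did, and among them at TKL2.

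Other photorespiratory loci outside the 39 gave a mix of results. Of 20 such loci, 10 fell, 1 rose and 9 did not pass the test in fusca against WT, where 18.4% of all tested loci fell and 16.7% rose, with a median log2 fold change of -0.69. Beside AT5G36790 (-5.83 ± 0.18), these were led by PMDH2, a peroxisomal malate dehydrogenase, with 32.5, 51.5 and 31.7 CPM in fusca, 692 CPM in GFP-HY5 and 817, 749 and 897 CPM in WT (log2 fold change -4.41 ± 0.25, edgeR adjusted p = 1.6e-06). GS2, the plastid glutamine synthetase that takes up photorespiratory ammonium, had 120, 158 and 124 CPM in fusca, 1905 CPM in GFP-HY5 and 2231, 2084 and 2523 CPM in WT, a log2 fold change of -4.09 ± 0.22. DiT1, a plastid dicarboxylate transporter, had a log2 fold change of -3.69 ± 0.21. HAOX1, a hydroxyacid oxidase of the glycolate oxidase family, rose by 0.82 ± 0.21 (edgeR adjusted p = 0.012). Isoforms chosen after their values were seen did not pass: PMDH1 had 0.24, mtLPD2 0.02 and SHM2 -0.19 (edgeR adjusted p = 0.28, 0.92 and 0.36).

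The loci listed under Rubisco assembly all fell in fusca, 11 of 11, where 18.4% of all tested loci fell. Their median log2 fold change was -2.35, with a range of -3.99 to -1.14. The lowest of the list was AT3G48420, at 9.92, 15.04 and 10.8 CPM in fusca, 161 CPM in GFP-HY5 and 178, 178 and 212 CPM in WT. These data do not show whether AT3G48420 takes part in assembly. RBCX1, a chaperone of the Rubisco large subunit, followed with -3.19 ± 0.21, and AT3G47650 and Cpn60beta2, a chaperonin subunit, with -2.46 and -2.43. Of 17 cytosolic or non-photosynthetic counterparts of the cycle's enzymes, 6 fell, none rose and 11 did not pass, against the same 18.4% lower and 16.7% higher over all tested loci, with a median log2 fold change of -0.10. FBA5, an aldolase outside the plastid, was at 0.337, 0.436 and 0.670 CPM in fusca, 524 CPM in GFP-HY5 and 507, 492 and 567 CPM in WT, from 5, 6 and 10 counts in fusca (log2 fold change -10.05 ± 0.27, edgeR adjusted p = 2.4e-07). FBP, the cytosolic fructose bisphosphatase of sucrose synthesis, had -4.18, FBA7 -2.05 and RPI2 -1.27. Of 10 loci of the oxidative pentose phosphate pathway, 2 fell, G6PD1 with -2.67 and G6PD3 with -1.11, both glucose phosphate dehydrogenases, and 8 did not pass. That count is near the 18.4% of all tested loci that fell.

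**Figure D5:**
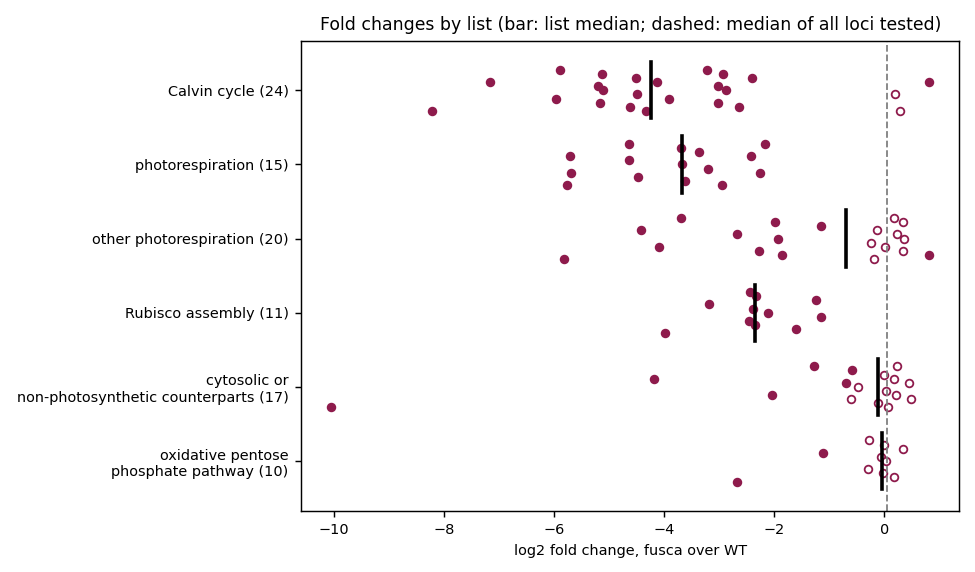
Log2 fold change in fusca against WT of every tested locus in the 6 lists, with the median of each list and, as a line, the median over all 21820 tested loci. The Calvin cycle, photorespiration and Rubisco assembly lists lie mostly below 0 with medians of -4.23, -3.67 and -2.35. The counterparts and the oxidative pentose phosphate loci have medians near 0. Of these, 6 of 17 and 2 of 10 fell past the test, where 18.4% of all tested loci did.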

How the data were processed

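The authors deposited raw counts per locus, of the sense strand per the file headers, with 1 column for each RNA-seq sample. The submitters' processing notes name Trim Galore, STAR, deepTools, HTSeq and TAIR10. The 5 summary rows were left out of all totals. They put 48.4% to 48.9% of a column outside any feature and 0.572% to 0.798% as ambiguous. The 3 GFP-HY5 columns are identical, which leaves 7 distinct libraries.

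Loci were kept by filterByExpr on fusca and WT and tested with edgeR 4.0.16 in R 4.3.3 (TMM factors of 1.11 to 1.26 in fusca, 0.911 in GFP-HY5 and 0.839 to 0.888 in WT; quasi-likelihood test; Benjamini-Hochberg adjustment over 21820 loci; threshold 0.05). SE is of the unshrunk log2 fold change. For the single GFP-HY5 library, log2 CPM values (prior count 2) were subtracted, with no test. The script was tested on simulated data of 21681 loci, of which 88 were changed by 1 in log2 and 112 by 2. It recovered 50% of the former and 90.2% of the latter, and 13 of its 158 calls were false. A far smaller part of the loci was changed there than passed the test in the real data. Alternatives were DESeq2 1.42.0, other scalings, filters and prior counts, summed copies, a replicate block, and leaving out each replicate.

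The members and the other lists were chosen with earlier results of these data known. All members are named, and of each other list up to 4 loci per direction with the largest change past the threshold. Names come from a RefSeq gene table of TAIR10.1, which named 35 of the 39; the others keep their identifiers, and no coordinates are given, since the builds differ in name. Of the 39, 12 overlap another locus there by position (RCA, PGK1, GAPA, PDTPI, FBA3, HCEF1, EMB3119, PRK, GOX1, GLDP1, AT1G32470 and CAT2). Strands were not compared, so whether these overlaps affect sense-strand counts is not known.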

Additional observations from a re-analysis of the deposited data

How the results depend on the processing

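The counts of members that fell in fusca against WT were 21 in the Calvin cycle and 15 in photorespiration under every alternative run, except with near-identical copies summed, where fewer loci remain (19 and 14). Library sizes in place of TMM factors raised the median of all loci by 0.45 in log2 and gave medians of -3.78 for the Calvin cycle and -3.24 for photorespiration, and -3.55 for the Calvin cycle against GFP-HY5; 79.8% of all calls were then higher in fusca, against 47.6% with TMM factors and 61.1% with upper-quartile factors. Leaving out 1 library gave medians of -4.31 to -4.09 for the Calvin cycle and -4.02 to -3.51 for photorespiration, and moved the difference between them to -0.70 to -0.29; with copies summed it was -0.34. FBA3 lay between -0.094, without fusca replicate 2, and 0.45 over the left-out libraries. FBA3 and TKL2 passed the test with library sizes (0.71 and 0.66), and TKL2 without fusca replicate 2 (0.40). The causes were not tested beyond what these settings change. The other 617 values of single members kept their direction and their side of the threshold. Same-numbered fusca and WT libraries did not deviate together (correlations of -0.20 to -0.05), but so few values cannot show whether the numbers pair samples. With a replicate block the medians were -4.20 and -3.66, the counts 21 and 15, and no call of a member changed. With 1 GFP-HY5 library, its differences from WT have no replicate check.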
